A study of Mus musculus with 12 samples.

Results

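Open chromatin was examined at 9 genes for B lineage transcription factors, *Ebf1*, *Pax5*, *Foxo1*, *Bach2*, *Pou2af1*, *Pou2f2*, *Bcl6*, *Prdm1* and *Bcl11a*. A peak counted as a peak of such a gene when the annotation program HOMER had given it that gene's name, which it takes from the nearest transcription start site (TSS). By this rule 173 of the 84243 peaks of the master peak-list belonged to the 9 genes, and each gene had between 5 and 40 peaks. The list came from ATAC-seq, an assay in which a transposase places sequencing adapters into DNA that is not tightly packed, on 6 cell types with 2 replicates each (12 samples). The donors were wild-type C57BL/6 mice of 8 to 12 weeks, with no other treatment or allele in the labels. Hematopoietic stem cells (HSCs; c-Kit+, lineage-, Sca1+, Flk2-, Slamf1+), megakaryocyte progenitors (MkPs; c-Kit+, lineage-, Sca1-, Slamf1-, CD41+), erythroid progenitors (EPs; CD71+), granulocyte/macrophages (GMs; Gr1+, Mac1+) and B cells (lineage-, CD43-, B220+) were sorted from bone marrow. T cells (CD3+, CD25-) came from thymus by the sample labels, whereas the study's methods describe isolation from bone marrow only. The peaks of all cell types had been merged into a single list with 0 columns of values per sample. The cell type in which a peak was open, the depth behind it, its replicate error and the identity of the sorted cells could therefore not be examined, and every statement below is about positions and sequence in the pooled list.

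The 9 proteins act at successive steps of B cell development. Ebf1 and Pax5 specify and maintain B cell identity, and Foxo1 acts with them in early progenitors, where it also drives the recombinase genes. Pou2f2 (Oct-2) binds the octamer element of immunoglobulin promoters, and Pou2af1 (OBF-1) is the B cell coactivator that docks on octamer-bound factors. Bach2 and Bcl6 are repressors that hold back plasma cell differentiation, whereas Prdm1 (Blimp-1) is the repressor that drives it, and it also acts in T cells. Bcl11a is needed for lymphoid progenitors and is also known as a repressor of embryonic and fetal globin genes in erythroid cells. Genes of this kind are known for large sets of distant enhancers, and an ATAC-seq peak outside a promoter is a candidate for such an element without showing that it acts as one.

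The starts of these genes are shown first, because the genes differed in whether an accessible region lay over the annotated start. The sequences are the RefSeq promoter windows (300 bases of GRCm38.p6, the assembly also named mm10, on the strand of the gene), each wholly inside a peak, and capitals mark exact matches to the motifs listed further on. *Foxo1* has 2 overlapping matches to the EBF motif, *Pax5* has 1 match to the PRDM1 motif, and *Prdm1* has matches to the FOXO, E-box and AP-1 motifs.
Foxo1 promoter, chr3:52268087-52268386, plus strand: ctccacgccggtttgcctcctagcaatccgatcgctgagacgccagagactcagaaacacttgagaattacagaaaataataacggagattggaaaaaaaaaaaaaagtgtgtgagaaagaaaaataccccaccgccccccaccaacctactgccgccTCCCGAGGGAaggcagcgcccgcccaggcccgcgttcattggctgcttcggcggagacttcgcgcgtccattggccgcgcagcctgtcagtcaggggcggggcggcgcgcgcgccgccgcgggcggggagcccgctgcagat
Pax5 promoter, chr4:44710645-44710944, minus strand: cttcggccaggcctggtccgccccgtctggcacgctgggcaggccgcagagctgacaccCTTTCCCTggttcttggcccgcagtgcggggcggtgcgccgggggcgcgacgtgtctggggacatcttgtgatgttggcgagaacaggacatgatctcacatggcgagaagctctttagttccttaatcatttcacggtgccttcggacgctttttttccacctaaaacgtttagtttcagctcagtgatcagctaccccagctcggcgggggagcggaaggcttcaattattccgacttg
Prdm1 promoter, chr10:44458699-44458998, minus strand: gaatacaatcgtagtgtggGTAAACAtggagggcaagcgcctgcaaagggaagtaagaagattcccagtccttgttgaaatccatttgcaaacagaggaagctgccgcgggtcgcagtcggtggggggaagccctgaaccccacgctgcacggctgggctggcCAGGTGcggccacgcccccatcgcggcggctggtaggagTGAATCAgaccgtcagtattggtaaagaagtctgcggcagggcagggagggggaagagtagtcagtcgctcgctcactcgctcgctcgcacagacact
No peak overlapped the RefSeq promoter windows of *Ebf1* and *Bach2*, the window of *Bcl11a* or the one at the inner start of *Bcl6*. *Bcl11a* and *Bcl6* nevertheless had peaks centred within 500 bp of a curated start. The accessible regions at *Ebf1* and *Bach2* instead covered a start in the GENCODE M21 annotation. These are shown as the central 300 bases of the peak on the plus strand, with the first 10 transcribed bases from that start in capitals.
Ebf1 peak, chr11:44617037-44617336, plus strand: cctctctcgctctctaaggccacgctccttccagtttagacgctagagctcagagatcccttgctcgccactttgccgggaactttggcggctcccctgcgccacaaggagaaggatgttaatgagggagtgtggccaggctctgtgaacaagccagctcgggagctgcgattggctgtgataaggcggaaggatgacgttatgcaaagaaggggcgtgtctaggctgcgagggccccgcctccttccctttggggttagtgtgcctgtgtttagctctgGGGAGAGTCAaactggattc
Bach2 peak, chr4:32238527-32238826, plus strand: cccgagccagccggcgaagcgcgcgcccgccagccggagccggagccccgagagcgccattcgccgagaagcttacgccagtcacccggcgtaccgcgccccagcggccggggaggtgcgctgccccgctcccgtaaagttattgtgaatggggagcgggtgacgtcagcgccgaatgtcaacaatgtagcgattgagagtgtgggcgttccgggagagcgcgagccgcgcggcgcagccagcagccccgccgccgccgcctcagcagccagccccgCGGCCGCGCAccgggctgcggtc

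By the starts HOMER used, the 173 peaks lay mostly far from the starts of their genes. Distal peaks, which HOMER places between genes, made up 111 of the 173 (64.2%, exact 95% interval 56.5 to 71.3%), against 37.6% of all 84243 peaks. Outside every RefSeq or GENCODE model of the 9 genes, predicted models included, 82 of the 111 were left, no longer a majority of the 173. No such count was made for the list. Intronic peaks numbered 48 (27.7%, 21.2 to 35.1%, against 40.5% of all peaks), and promoter peaks, centred within 500 bp of a TSS, numbered 8 (4.62%, 2.02 to 8.91%, against 15.6%). The last 6 peaks were in other genic classes, 3 in the wider HOMER promoter class, 2 in the 3′ untranslated regions of *Foxo1* and *Pou2af1*, and 1 at the transcription end of *Bcl11a*. These intervals cover counting error only and treat peaks as independent, although peaks of a gene share a locus. No test was made, since the list holds no samples to test over.

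The non-promoter peaks, 165 in all, had a median distance of 72502 bp from the TSS (95% order-statistic interval 61007 to 86353 bp), beside 22261 bp over the 71072 non-promoter peaks of the list. More than 100 kb from the TSS lay 63 of them (38.2%, 30.7 to 46.1%, against 12.97% of all), and 21 and 20 of these belonged to *Bach2* and *Prdm1*. Upstream of the TSS lay 97 of the 165 (58.8%, 50.9 to 66.4%, against 41.7%), and 60 of these belonged to *Bach2* and *Prdm1*. Of the 111 distal peaks, 33 belonged to *Bach2* and 30 to *Prdm1*. Longer RefSeq models of these genes, with starts farther upstream, held 26 of the 33 and 3 of the 30. Without these 2 genes, a choice made after seeing the data, the median distance was 49032 bp. Distal peaks were then 48 of 106 and no longer the majority, and no interval was computed for that share. The share over 100 kb was then 22 of 99 (22.2%, 14.5 to 31.7%), still above that of the list by the starts HOMER used. Of these 22 peaks, 13 belonged to *Bcl11a*, and all 13 lay nearer to a noncoding RNA gene, 4930538E20Rik, by curated RefSeq starts. The share without them was not computed. Likewise, 17 of the far *Prdm1* peaks lay nearer to the RefSeq start of 4930431F10Rik. The upstream share without *Bach2* and *Prdm1* was 37 of 99 (37.4%, 27.9 to 47.7%), on the other side of the 41.7% of the list, which its interval holds.

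**Figure D1:**
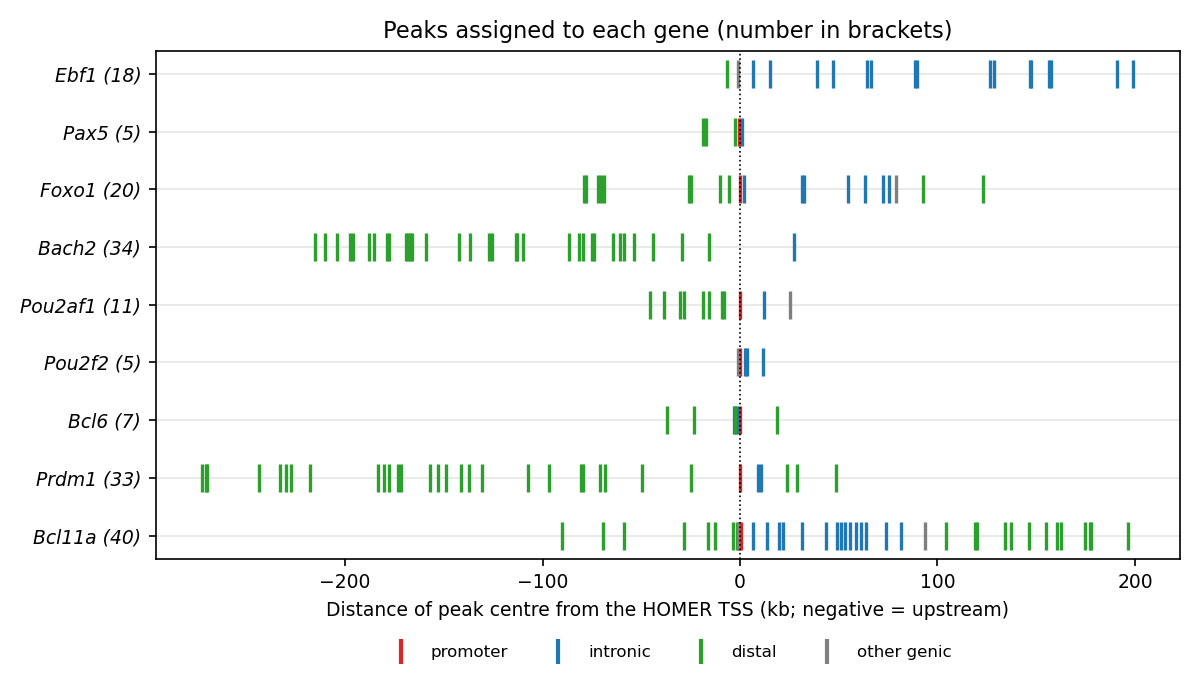
Position of each of the 173 peaks on the axis of its gene, in kb from the TSS used by HOMER (negative values are upstream), with 1 row per gene and colours for promoter, intronic, distal and other genic peaks. The peaks of Bach2 and Prdm1 reach 215200 and 272174 bp upstream, those of Ebf1 lie almost all downstream in introns, and those of Pax5 and Pou2f2 stay within 18788 and 11886 bp.

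All 9 genes had more peaks than the median gene, as did 41.2% of all named genes. Over the 19040 genes named in the list, the median was 3 peaks, the upper quartile was 5, the 95th percentile was 14 and the maximum was 89. *Bcl11a* had 40 peaks, and 19 genes of the list had as many or more. *Bach2* had 34 and *Prdm1* 33, levels reached by 48 and 55 genes. *Foxo1* followed with 20, *Ebf1* with 18, *Pou2af1* with 11 and *Bcl6* with 7. *Pax5* and *Pou2f2* had 5 each, and 68.2% of genes had fewer than that. A high count was thus shared by 5 of the 9 genes, which stood above the 95th percentile, while *Pax5*, *Pou2f2*, *Bcl6* and *Pou2af1* lay below it.

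**Figure D2:**
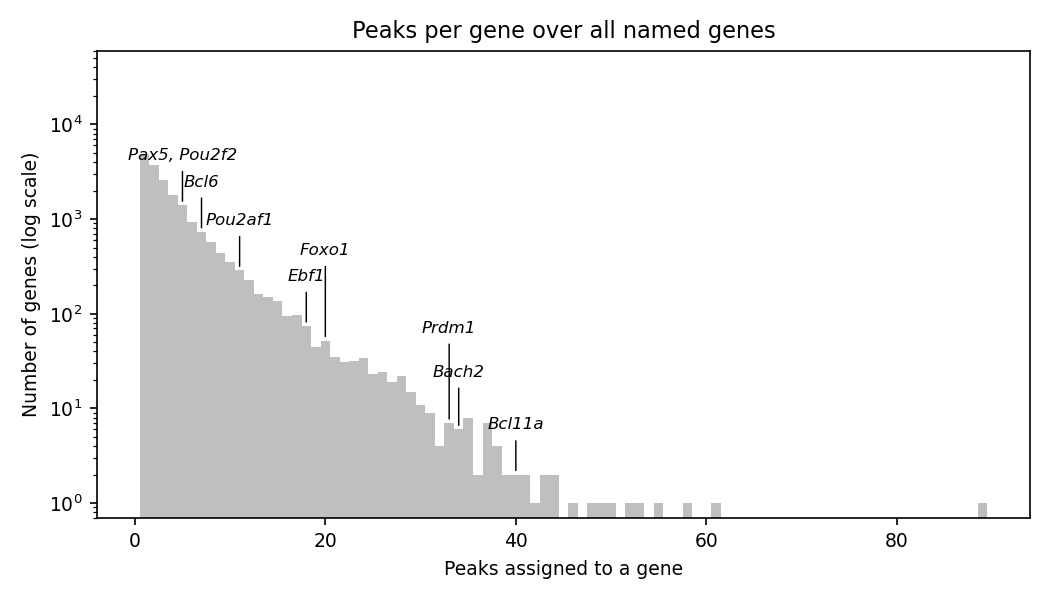
Number of peaks per gene (horizontal axis) over all 19040 named genes, with the number of genes on a log scale (vertical axis) and the 9 B lineage genes marked. Bcl11a (40 peaks), Bach2 (34) and Prdm1 (33) lie in the thin right tail, and Pax5 and Pou2f2 (5 each) lie close to the bulk of the genes.

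The number of peaks was also set against the length of sequence that lies closer to a gene's start than to any other. Genes with at least 10 kb and at least 1 peak were ranked. By curated RefSeq starts, *Pax5* and *Pou2f2* owned 26.9 and 27.6 kb, less than most of these genes. Their 5 peaks each gave 18.6 and 18.1 peaks per 100 kb, above 94.6% and 94.0% of them. *Ebf1* owned 266 kb and had 6.76 peaks per 100 kb, above 56.9% of genes, and *Bach2* owned 304 kb with 11.2 per 100 kb, above 79.7%. *Pou2af1* had 13.5 per 100 kb (above 86.2% of genes), *Foxo1* 9.71 (73.9%) and *Bcl6* 8.78 (69.4%). For *Prdm1* and *Bcl11a* the annotations differ. RefSeq places the start of the noncoding RNA gene 4930431F10Rik nearest to 17 of the 33 *Prdm1* peaks and that of 4930538E20Rik nearest to 23 of the 40 *Bcl11a* peaks. With the remaining 16 and 17 peaks, the densities were 8.44 and 12.1 per 100 kb, above 67.3% and 82.5% of genes. By peaks per 100 kb, *Pax5* and *Pou2f2*, the lowest by number, were therefore highest, and *Ebf1* was lowest.

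*Ebf1*, the pioneer factor of the lineage, had 18 peaks (0 promoter, 16 intronic, 1 distal and 1 other genic). The nearest peak, chr11:44616938-44617436, was centred 913 bp upstream of the curated RefSeq start but 130 bp from a GENCODE M21 start, and its sequence is printed above. The remaining upstream peak lay 6793 bp from the start. Of the 16 intronic peaks, 14 fell in intron 6 of 15, which is 226 kb long, and introns 4 and 5 held 1 each. The farthest peak, 199126 bp downstream at chr11:44816977-44817475, was in the same intron 6. Neighbouring peaks were a median of 8348 bp apart. A further 10 peaks in the *Ebf1* gene body, in the introns beyond, carried the name of the noncoding RNA gene Gm12159, whose own start is 166404 bp or more from them.

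*Pax5*, the commitment factor of B cells, had 5 peaks, of which 1 was at the promoter, 1 intronic and 3 distal. The promoter peak, chr4:44710570-44711068, was 379 bp upstream of the HOMER start and 125 bp from the curated RefSeq start. The intronic peak lay 1159 bp downstream in intron 1 of 9, and the distal peaks lay 2751, 17293 and 18788 bp upstream, the last at chr4:44728979-44729477 in an ERV1 repeat. The peak at 2751 bp was in a CpG island. Of the 15 peaks in the *Pax5* gene body (186 kb), 14 were named for noncoding RNA genes inside it. The name 5730488B01Rik was on 8 of these, which lay 4516 to 43128 bp from the *Pax5* start, and Mir5120 was on 6, which lay 90237 to 153966 bp from it. Counted by name or gene body, *Pax5* had 19 peaks. In RefSeq introns, 4 peaks lay in intron 1, 4 in intron 5 and 3 in intron 8.

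*Foxo1*, a forkhead factor restrained by PI3K signalling, had 20 peaks spread on both sides of its start (1 promoter, 7 intronic, 11 distal and 1 in the 3′ untranslated region). The promoter peak, chr3:52268045-52268543, was centred 43 bp upstream. All 7 intronic peaks lay in intron 1 of 2, from 1815 to 75411 bp downstream. Upstream, 5 peaks clustered between 68813 and 78945 bp, and the farthest peak lay 122985 bp downstream at chr3:52391073-52391571. None of the 8 peaks in its gene body had another name. Beyond the last downstream peak, 18 peaks carried the name of the noncoding RNA gene Gm30173, from 124 to 350 kb from the *Foxo1* start.

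*Pou2f2*, the lymphoid octamer factor, had 5 peaks within 11886 bp of its start (1 promoter, 3 intronic and 1 in the wider promoter class 870 bp upstream). The promoter peak, chr7:25132254-25132752, was 43 bp upstream, and the farthest, chr7:25120325-25120823, was in intron 4 of the 13 introns HOMER used. It was the only gene of the 9 with no distal peak. Its 3 further gene body peaks carried the name Mir6537. A GENCODE start of *Pou2f2* at chr7:25179726 was 17 bp from the centre of a peak named for the noncoding RNA gene D930028M14Rik, which had 4 peaks, 13.6 to 49.2 kb from the *Pou2f2* start. The median GC content of the *Pou2f2* peaks was 61.3%, against 45.5 to 49.1% in the other genes.

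*Pou2af1*, the octamer coactivator, had 11 peaks, 8 of them distal and all of those upstream. The promoter peak, chr9:51213291-51213789, was centred 150 bp upstream of the start. The distal peaks were spaced from 7906 to 45520 bp upstream, the farthest at chr9:51167921-51168419, and no more than 12.5 kb separated neighbours in a run of 10 peaks. An intronic peak lay 11923 bp downstream in intron 1 of 4, and the peak in the 3′ untranslated region lay 25380 bp downstream. Both peaks centred in its gene body had its own name.

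*Bach2* had 34 peaks, more than any other of the genes except *Bcl11a*, and 33 of these were upstream and distal by HOMER. The nearest peak, chr4:32401413-32401911, was 15773 bp from the curated start, and the farthest, chr4:32201986-32202484, was 215200 bp upstream. The only peak downstream was in intron 1 of 4, at 27401 bp. Longer transcript models place most of the upstream peaks inside the gene. Predicted RefSeq models of *Bach2* begin at chr4:32238413 and span 348 kb, and 26 of the 33 distal peaks lay inside that span. In GENCODE M21 the number was 25 of 33. At the upstream starts lay 2 peaks in CpG islands, 178758 and 177531 bp from the curated start. The former, with 76.95% GC and the sequence printed above, was centred 127 bp from the GENCODE start at chr4:32238804 and 236 bp from the RefSeq start that 7 predicted models share. Downstream, 9 of the 10 peaks in the curated gene body carried the name of its antisense gene *Bach2os*, so that by name or gene body *Bach2* had 43 peaks. ATAC-seq carries no strand, and open chromatin there cannot be told apart between the gene and its antisense partner.

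*Bcl6*, the germinal centre repressor, had 7 peaks (1 promoter, 2 intronic and 4 distal). The promoter peak, chr16:23988655-23989153, was 52 bp upstream. Both intronic peaks were in intron 1 of 9, and their HOMER distances of 1418 and 3089 bp upstream were counted from a second RefSeq start inside the gene at chr16:23981283. The distal peaks lay 2497, 23419 and 36826 bp upstream and 18689 bp downstream, the farthest at chr16:24025429-24025927. Farther upstream, 73.6 to 234 kb from the start, 21 peaks carried the name of the noncoding RNA gene Gm46545, 3 times the number named for *Bcl6*. The basal plus extension rule gives a gene the sequence up to its neighbours' promoters, within 1 Mb of its start. It counted only genes with a transcript tagged RefSeq Select, and genes without one took no sequence. Under it all 21 were linked to *Bcl6*, and 33 peaks in all.

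*Prdm1*, the plasma cell repressor, had 33 peaks over 321 kb (1 promoter, 2 intronic and 30 distal). The promoter peak, chr10:44458500-44458998, was centred 1 bp from the start. The intronic peaks lay 8895 and 10467 bp downstream in intron 3 of 6, and 3 distal peaks lay beyond the gene at 23951, 29043 and 48618 bp. The other 27 distal peaks were upstream, and the farthest, chr10:44730673-44731171, was 272174 bp away. By curated RefSeq starts, 17 of the 33 peaks, the farthest among them, lay nearer to the start of 4930431F10Rik. The peak at 70822 bp upstream, in a CpG island, was 1069 bp from a GENCODE start at chr10:44528501 and 1012 bp from a predicted RefSeq start. Only 3 of the 30 distal peaks lay inside the longer transcript models. The central 300 bases of the CpG island peak hold 1 match to the motif of PRDM1 itself, in capitals below.
Prdm1 upstream peak, chr10:44529420-44529719, plus strand: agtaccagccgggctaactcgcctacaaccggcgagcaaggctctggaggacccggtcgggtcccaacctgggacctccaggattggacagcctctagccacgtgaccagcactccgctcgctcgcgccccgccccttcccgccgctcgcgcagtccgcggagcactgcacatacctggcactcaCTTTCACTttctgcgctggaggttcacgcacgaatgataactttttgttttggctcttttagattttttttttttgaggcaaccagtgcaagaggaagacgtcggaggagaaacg

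*Bcl11a* had the most peaks, 40, in all classes (2 promoter, 15 intronic, 21 distal and 2 other genic). Its 2 promoter peaks were 304 bp upstream of one curated start, at chr11:24077503-24078001, and 418 bp downstream of another, and a further peak lay 796 bp upstream of the latter. Of the intronic peaks, 14 fell in intron 2 of 4, which is 72.6 kb long, between 6636 and 74060 bp from the start, and 1 in intron 3. Of the 14, 7 lay close together, at 49032, 51394, 52965, 55587, 58947, 61056 and 63931 bp. Beyond the gene, 13 peaks lay over 100 kb downstream, the farthest at chr11:24277002-24277500 and 196556 bp away. By curated RefSeq starts, 23 of the 40 peaks lay nearer to the start of 4930538E20Rik, these 13 and the 7 in intron 2 among them. In all, 24 of the *Bcl11a* peaks formed a run with no gap above 12.5 kb, the longest of the 9 genes, followed by 14 for *Bach2* and 10 for *Pou2af1*. Over all 9 genes, 76.2% of the 164 gaps between neighbouring peaks with the same name were no longer than 12.5 kb, against 68.2% of such gaps in the list.

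**Figure D3:**
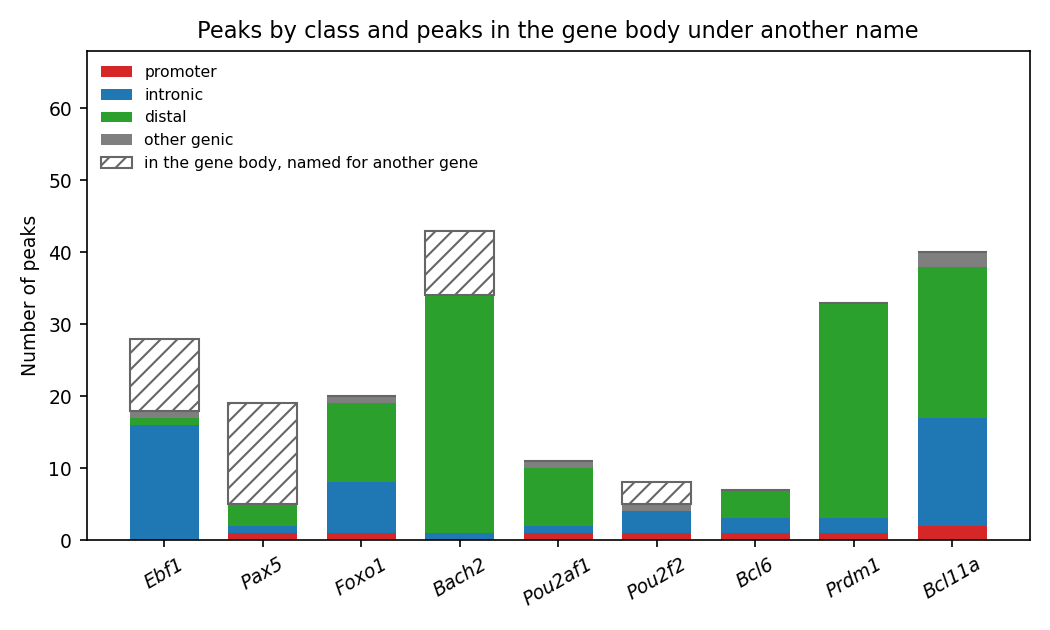
Stacked bars of the number of peaks per gene (vertical axis, from 0) by class, with hatched boxes for peaks centred in the gene body that carry another gene's name. The hatched boxes hold 14 peaks for Pax5, 10 for Ebf1, 9 for Bach2 and 3 for Pou2f2, and none for the other 5 genes.

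In total the 9 curated gene bodies held 88 peak centres, and 36 of these carried the name of another gene. They lay in 4 of the 9 genes, and each name was that of a noncoding RNA gene. The basal plus extension rule linked 401 peaks to the 9 genes, with none of the 173 lost and 228 added that carried other names. Under it *Foxo1* had 75 peaks, *Ebf1* 66, *Bach2* 65, *Bcl11a* 57, *Prdm1* 50, *Bcl6* 33, *Pou2f2* 21, *Pax5* 19 and *Pou2af1* 15. The order of the genes by number of peaks thus depended on the rule that tied peaks to genes.

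**Figure D4:**
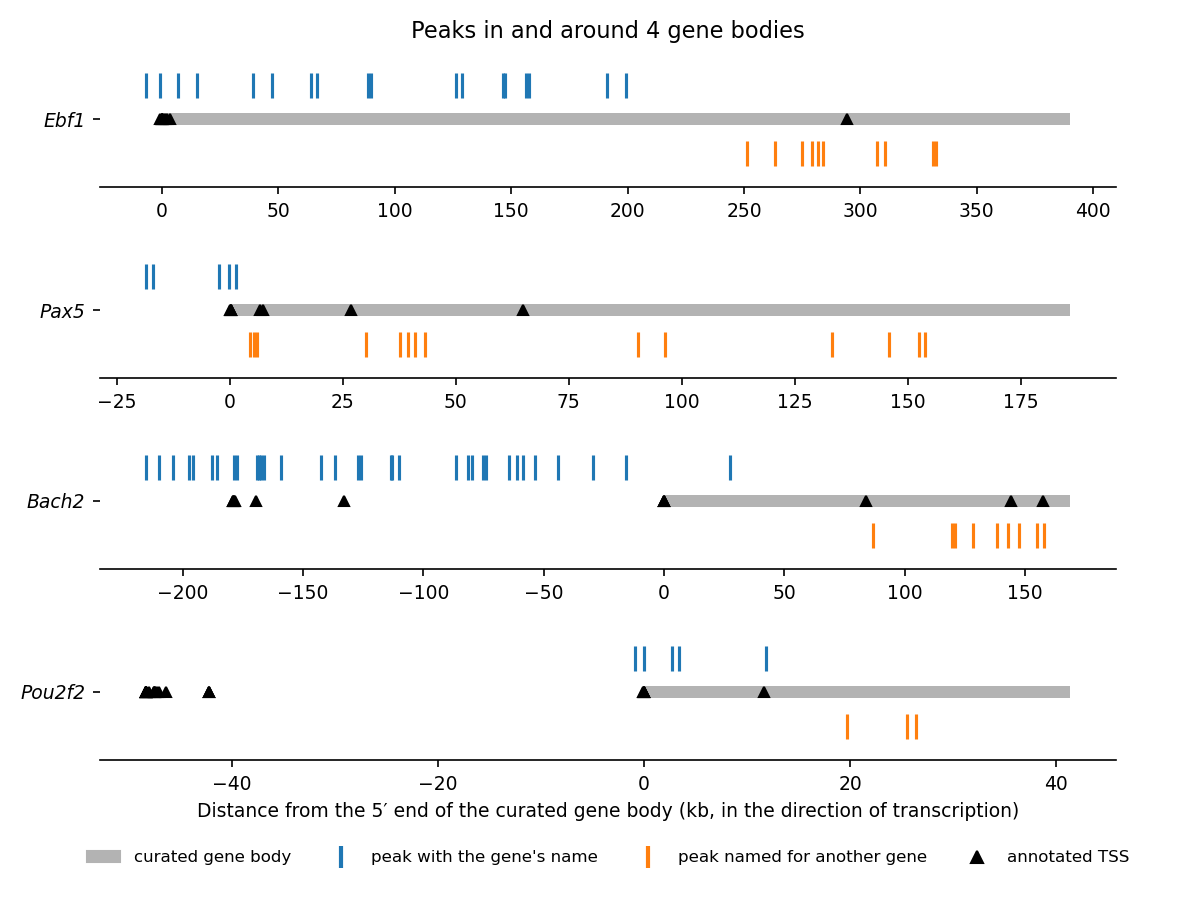
Peaks around Ebf1, Pax5, Bach2 and Pou2f2 in kb from the 5′ end of the curated gene body (grey bar), with peaks that carry the gene's name above the bar, peaks in the body named for another gene below it, and annotated starts as triangles. The 14 peaks below Pax5 fill its introns, the 10 below Ebf1 lie in its downstream part, and starts of Bach2 and Pou2f2 also lie far upstream of the bar.

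A promoter peak was present at 7 of the 9 genes, and 64.5% of the named genes had one. *Ebf1* and *Bach2* lacked it. Among the 485 genes with at least 18 peaks, the median number of the 9 genes, 391 (80.6%) had a promoter peak. This depended on the annotation of the start. When any GENCODE M21 start of the gene was counted, an alternative added after seeing the data, 11 of the 173 peaks were promoter peaks, and both *Ebf1* and *Bach2* had one.

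Lists of related genes give the context. For 24 other regulators of B cells, the median was 17 peaks per gene (range 3 to 89), and 22 of them had a promoter peak. The most peaks were at *Foxp1* (89) and *Runx1* (35), and the fewest at *Spib* (3), with 3 genes tied at 5. The 20 genes for B cell surface, signalling and recombination proteins had a median of 5.5 peaks (0 to 42) and a promoter peak at 16. *Cxcr4* had 42 and *Il7r* 16, while no peak carried the name of *Vpreb1*. The 8 T cell transcription factor genes had a median of 6 (3 to 23), from *Notch1* (3), with 3 genes tied at 4, to *Gata3* (15) and *Runx3* (23). The 9 B lineage factors had a median of 18. Distal shares were 37.6% for the other regulators (exact interval 33.1 to 42.1%), 62.1% for the B cell proteins (53.9 to 69.8%) and 52.0% for the T cell factors (40.2 to 63.7%), beside 64.2% for the 9 genes. Among non-promoter peaks, 13.9% of those of the other regulators (10.7 to 17.5%) lay over 100 kb from the TSS, 14.7% of those of the B cell proteins (9.22 to 21.8%) and 26.1% of those of the T cell factors (16.3 to 38.1%), against 38.2% (30.7 to 46.1%) for the 9 genes. The interval of the T cell factors overlapped that of the 9 genes.

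Repeat annotation was sparse in the 165 non-promoter peaks. HOMER placed 16 of them (9.70%, 5.64 to 15.3%) in a repeat, against 17.9% of all non-promoter peaks. Of these, 10 were in ERVL-MaLR elements, an old family of endogenous retroviral repeats, which made up 26.6% of repeat peaks in the list. *Bach2* had 4 such peaks, *Prdm1* and *Bcl11a* 2 each, and *Ebf1* and *Pou2af1* 1 each. As a share of non-promoter peaks, ERVL-MaLR peaks were 6.06% (2.94 to 10.9%) in the 9 genes and 4.75% in the list. Median GC content was 47.1%, against 47.7% in the list.

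The sequences under the non-promoter peaks were searched on both strands for exact matches to 13 motif families. For factors encoded by the 9 genes, these were EBF (TCCCNNGGG), the octamer or OCT motif (ATGCAAAT), FOXO (GTAAACA), BCL6/STAT (TTCCNNGAA), PRDM1 (AGNGAAAG) and BACH/MAF (TGCTGAGTC). For their common partners, the AP-1 motif was TGANTCA. The first E-box, read by E proteins, was CAGCTG. The second E-box was searched as CAGGTG. The RUNX motif of the core binding factors was TGTGGT. The motif of PU.1 was GAGGAAGT, that of PU.1 joined to an IRF protein (PU.1:IRF) was GGAANNGAA, and the motif of the erythroid and T cell GATA factors was AGATAA. Neither PAX5 nor BCL11A motifs were searched. Matches can overlap between families, as for the single BACH/MAF match, which lay on an AP-1 match, and for 2 of the 38 PRDM1 matches, which lay on PU.1:IRF matches. A match is a description of letters and not a site shown to be bound.

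Of the 13 families, OCT was the only one whose share in the 165 peaks had an exact interval apart from the share in all non-promoter peaks. It was found in 14 of 165 (8.48%, 4.72 to 13.8%), against 3.63% of the 71072 peaks and 3.53% of intronic peaks. The peaks were unevenly divided, 7 at *Bcl11a*, 2 each at *Ebf1*, *Bach2* and *Prdm1*, and 1 at *Pou2af1*. Without *Bcl11a* the share was 5.51% (2.24 to 11.03%), an interval that holds the share of the list, and leaving out any other gene gave 8.16% to 9.59%. With 13 families searched and peaks of a gene sharing a locus, the interval is no test. ERVL-MaLR repeats held 3 of the 14 OCT peaks, 2 at *Bach2* and 1 at *Bcl11a*, against 3.29% of OCT peaks in the list.

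The OCT matches nearest to the peak centres are printed here with 10 bases on either side, on the strand of the motif and with the motif in capitals, because they lie in the middle of the accessible region. Of the 14, 7 lay within 50 bp of a centre, and 1 for each of the 5 genes is shown. The match at *Pou2af1*, the coactivator of octamer factors, lay in the distal peak 7906 bp upstream.
Ebf1, 147134 bp downstream, chr11:44765227-44765234: tattgtactgATGCAAATagtggacttt
Prdm1, 8895 bp downstream, chr10:44449838-44449845: tcgaagagaaATGCAAATgagcctgccc
Bcl11a, 174912 bp downstream, chr11:24255614-24255621: cagaactcggATGCAAATgactgaacca
Pou2af1, 7906 bp upstream, chr9:51205804-51205811: cttggctcatATGCAAATctacttgtcc
Bach2, 187958 bp upstream, chr4:32229428-32229435: acaccaggaaATGCAAATcaaagccaca
The first of these was 3 bp from the centre of its peak and the *Prdm1* match 11 bp from it. The *Bach2* match, 45 bp from the centre, is in a peak that HOMER assigns to an MTE2a element of the ERVL-MaLR family. The bases next to the motif differed from gene to gene.

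EBF matches were found in 10 of the 165 peaks (6.06%, 2.94 to 10.9%, against 8.88% of all), and 0 of the 18 *Ebf1* peaks held one. *Foxo1*, *Pou2f2* and *Prdm1* had 2 such peaks each, and *Pax5*, *Bach2*, *Bcl6* and *Bcl11a* 1 each. The *Foxo1* promoter held another, as shown above. Among the 11 RefSeq promoter windows of the 9 genes, the EBF motif was in 1, beside 6.56% of 32851 RefSeq promoter windows. The PRDM1 motif was in 3, beside 8.63%, and PU.1:IRF in 4, beside 8.24%. Every other family was in 2 or fewer. The PRDM1 windows of *Ebf1* and *Bach2* overlapped no peak, and of the PU.1:IRF windows only that of *Pou2f2* lay in one. The EBF matches closest to a peak centre, each 14 bp from it, and the match in the CpG island peak upstream of *Pax5* are printed in the same way.
Foxo1, 78945 bp upstream, chr3:52189402-52189410: gtgggacagcTCCCAGGGGgagctcctca
Bcl6, 2497 bp upstream, chr16:23991359-23991367: ggaaatgtgcTCCCTCGGGcggtagagcc
Pax5, 2751 bp upstream, chr4:44713003-44713011: tgcgctgcgtTCCCGAGGGggcgcccgtt
All 3 share the outer letters fixed by the search and differ at the free positions.

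For the other families the interval of the 9 genes held the share of the list. RUNX was the most frequent, in 61 of 165 peaks (37.0%, against 42.5% of all), followed by the first E-box (33.3% against 30.4%) and the second (26.7% against 32.9%). GATA was in 22.4% (26.9% of all), PU.1:IRF in 21.8% (17.0%), PRDM1 in 20.6% (16.7%), AP-1 in 16.4% (16.9%) and BCL6/STAT in 10.9% (7.44%). PU.1 was in 8.48% (10.2%), FOXO in 7.88% (7.25%) and BACH/MAF in 0.606% (1.49%). The 15 PU.1 matches lay closest to the peak centres, a median of 28 bp away, and 10 of them were within 50 bp. A central position was also common in the list. There, 5610 of the 7281 non-promoter peaks with a PU.1 match had one in the central 200 bp, beside 12 of 14 for the 9 genes. *Prdm1* held 7 of the 14 peaks with a PU.1 match, and 5 of the 13 with a FOXO match.

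**Figure D5:**
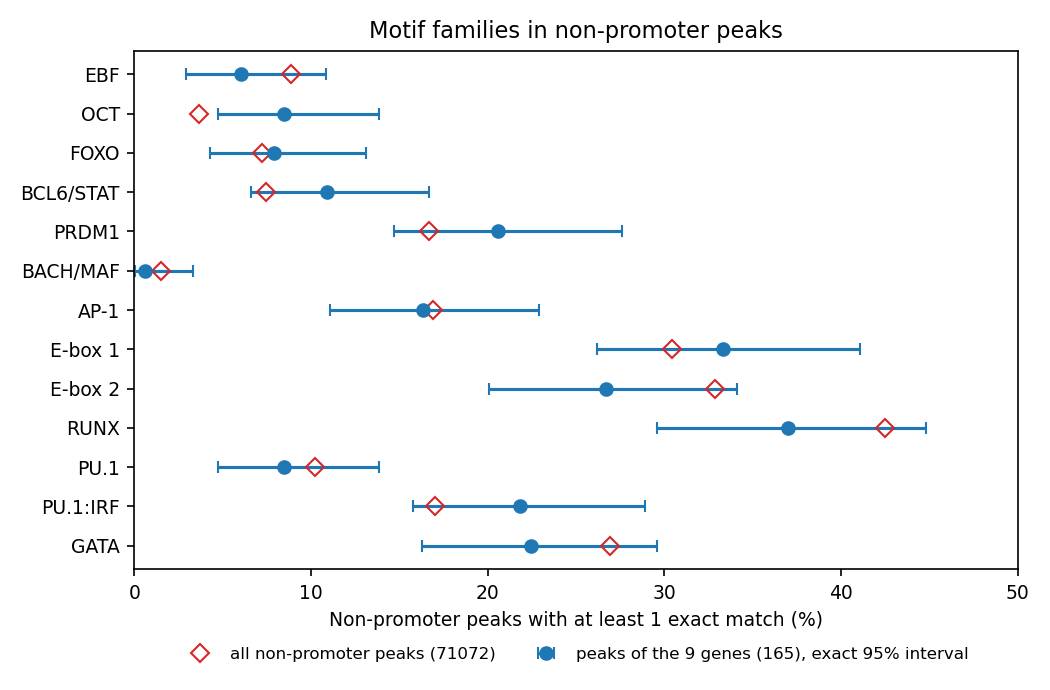
Share of non-promoter peaks with at least 1 exact match (horizontal axis, %) for 13 motif families, with circles and exact 95% intervals for the 165 peaks of the 9 genes and open diamonds for all 71072 non-promoter peaks. E-box 1 and E-box 2 are the first and the second E-box. The diamond lies outside the interval for OCT (3.63% against 4.72 to 13.8%) and inside it for the other 12 families.

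Non-promoter peaks of the 9 genes held a median of 2 motif families, as did those of the list. No family was found in 12 (7.27%, against 7.51%), and 5 or more were found in 8 (4.85%, against 4.53%). Most families, 7, were in the *Prdm1* peak 23951 bp downstream, beyond the gene. It held OCT, BACH/MAF, AP-1, PU.1, GATA and both E-box matches, and the only BACH/MAF match in the 165 peaks. Peaks with 6 families were at *Prdm1* (183080 bp upstream), *Bcl11a* (52965 bp downstream) and *Bach2* (29464 bp upstream). The central 300 bases of the *Prdm1* peak with 7 families, and of the *Pou2af1* peak that holds the OCT match shown above, are printed with every match in the window in capitals. Each window holds 4 of the families of its peak.
Prdm1 downstream peak, chr10:44434647-44434946, plus strand: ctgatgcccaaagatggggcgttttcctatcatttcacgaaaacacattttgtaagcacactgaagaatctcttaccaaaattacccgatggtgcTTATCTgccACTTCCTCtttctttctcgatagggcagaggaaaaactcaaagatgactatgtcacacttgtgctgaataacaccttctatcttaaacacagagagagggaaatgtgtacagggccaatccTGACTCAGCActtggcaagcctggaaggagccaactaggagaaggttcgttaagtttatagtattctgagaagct
Pou2af1 upstream peak, chr9:51205634-51205933, plus strand: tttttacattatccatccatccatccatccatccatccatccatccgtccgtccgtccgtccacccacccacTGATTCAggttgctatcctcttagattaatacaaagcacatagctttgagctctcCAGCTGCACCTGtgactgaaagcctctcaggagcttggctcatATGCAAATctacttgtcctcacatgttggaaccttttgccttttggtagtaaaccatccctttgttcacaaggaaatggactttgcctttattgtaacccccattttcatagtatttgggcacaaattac
In the *Prdm1* window the capitals mark, in order, GATA, PU.1 and the overlapping AP-1 and BACH/MAF matches, on the reverse strand for GATA, PU.1 and BACH/MAF. In the *Pou2af1* window they mark AP-1, both E-boxes side by side and OCT.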

How the data were processed

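The authors processed the ATAC-seq reads of 12 samples with the ENCODE pipeline on mm10, leaving out multimapping reads. They concatenated the optimal lists of the 6 cell types, kept non-overlapping peaks with chromVAR and annotated them with HOMER 4.10.2, a version given by the submitters' processing notes. Accessible repeats with only multimapping reads are therefore missing. The deposited score was 0 in every peak and was not used, and deposited positions and distances are in bp. Depth per sample is unknown, no value has a replicate error, and no test was made.

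Classes were set in the order promoter (500 bp), intronic, distal and other genic. Genes came from RefSeq release 108 of GRCm38.p6 (curated transcripts unless stated) and GENCODE M21, and all promoter sequences from RefSeq. Intervals are exact binomial (Clopper-Pearson) at 95%. Tested on simulated data, the motif search found all 1980 planted sites and the gene domains were right at 7 of 7 positions. The 9 genes, the gene lists and the motifs were chosen with earlier results of these data known. All 9 genes were named, as were at most 4 genes per list (the 2 with most and the 2 with fewest peaks), neighbours that share a locus, and the nearest, farthest and most motif-rich peaks. A gene of the T cell list is not reported here. Other peaks and neighbours were named after their values were seen. Alternatives concerned the assignment of peaks, the promoter width, the annotation, the genes compared, the motif match and the members included. Computations ran in Python 3.11.15 with scipy 1.17.1 and pandas 2.3.3, and figures were drawn with matplotlib 3.10.9.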

Additional observations from a re-analysis of the deposited data

How the results depend on the processing

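No paired analysis was possible because the peak list has no columns per sample. The number of peaks of the 9 genes, 173, was 88 by curated RefSeq gene body, 401 by the basal plus extension rule, 110 within 100 kb of the TSS and 106 without *Bach2* and *Prdm1*. The 8 promoter peaks became 4 within 100 bp, and 10 or 11 with a width of 1000 bp, the HOMER promoter class or other annotated starts. The distal count of 111 became 48 without *Bach2* and *Prdm1*, and the median distance fell from 72502 to 49032 bp. Outside every model of the genes, 82 distal peaks were left. At least 1 of the 13 motif families was in 92.7% of non-promoter peaks, in 73.9% when the central 200 bp were searched and in 100% with 1 mismatch. The OCT interval stayed apart from the list in the central 200 bp, but not with 1 mismatch or without *Bcl11a*. PRDM1 (central 200 bp), PU.1 (1 mismatch) and PU.1:IRF (without *Bcl11a*) stood above the list in those settings only. The other 27 values of the main counts and shares stayed within 1.5 times the count or within the interval. Of the further values, which include the upstream share and the share of each motif, 27 moved and 42 did not. The upstream share was 69.3% without *Bcl11a*, outside its interval of 50.9 to 66.4%. Most motif shares moved in the central 200 bp, and all moved with 1 mismatch. The exclusion of *Bach2* and *Prdm1*, the other annotated starts and the longer models were chosen after seeing the data. The unknown depth limits every count, since an element missing from the list may be closed or undetected.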

Other observations

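Noncoding RNA genes next to the 9 genes took up large runs of peaks. Gm12159, downstream of *Ebf1*, named 30 peaks between 251 and 836 kb from the *Ebf1* start. Beyond *Bcl11a*, 14 peaks between 204 and 399 kb from its start carried the name 4933430M04Rik, all intergenic. Downstream of *Prdm1*, 8 peaks carried the name Mir1929, 55.2 to 136 kb from the *Prdm1* start. Each of these peaks was linked to the B lineage gene by the basal plus extension rule. In that rule, genes without a RefSeq Select transcript took no sequence, so the link is set by the rule and by position alone. Whether the peaks act on the B lineage gene was not tested.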
